A study of Ranunculus trichophyllus with 6 samples.

Results

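The genes described here are 111 homologs of *Ranunculus trichophyllus*, an amphibious plant, that were annotated under RNA methylation or under the synthesis of pyrimidine ribonucleotides. They were chosen by annotation: an assembled transcript belonged to them where its best protein match was from *Arabidopsis thaliana* and carried either Gene Ontology (GO) term, and where the match had none of the GO terms for ribosomes or ribosomal subunits. Transcripts with the same *Arabidopsis* match were summed into 1 homolog, which gave 111 homologs from 180 transcripts among 8613 homologs in all. Both terms were picked because their homologs had lower levels in aquatic plants. The difference between aquatic and terrestrial plants is thus a description for these homologs. Counts of them called by a test of that difference describe the choice and are no support for it.

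RNA was sequenced from shoots of seedlings without cotyledons and hypocotyls, grown on land (terrestrial, 3 libraries) or soaked from an age of 1 week (aquatic, 3 libraries). No genotype or strain is given in the labels, and they do not say whether the libraries of a condition came from separate plants or cultures, though the study speaks of independent experiments. Replicate 1 of each condition is labelled leaf at an age of 14 days, and replicates 2 and 3 are labelled leaf with shoot apical meristem at 11 days, so age, tissue and experiment cannot be told apart. The study's methods instead describe a single harvest time for the sequenced plants, and the comparison of harvests below rests on the labels alone. The study compared the conditions to find genes behind the different leaves that the plant forms on land and in water.

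Methyl groups are placed on ribosomal, transfer and messenger RNA by enzymes that take them from S-adenosylmethionine. In the nucleolus, small nucleolar RNAs guide the modification of ribosomal RNA by protein complexes (snoRNPs), while other factors cut, fold and assemble it into ribosomal subunits. Pyrimidine nucleotides are made from carbamoyl phosphate and aspartate through dihydroorotate and orotate to UMP, the precursor of UTP and CTP, and growing tissue needs them for RNA and DNA.

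Both terms rested mostly on computational evidence. RNA methylation covered 53 homologs and pyrimidine ribonucleotide synthesis 73, with 15 under both. For 51 of the 53 and 71 of the 73 the only evidence given was RCA, a code for computational analysis of reviewed data such as shared expression in other datasets. Of the 53, the other 2 were methyltransferase homologs placed there by electronic annotation, AT5G01230 and AT5G13830. Experimental evidence was given for *PYRD* (AT5G23300, dihydroorotate dehydrogenase) and AT3G54470 (UMP synthase) under pyrimidine synthesis, and for no homolog under RNA methylation. Methyltransferase activity was annotated for 4 of the 111 homologs, and 40 of 111 (36.0%) were annotated to the nucleolus, against 2.11% of all 8613 homologs. The small-subunit processome, the large complex that processes the precursor of the small ribosomal subunit, had 14. The mitochondrion had 23 (20.7%, against 12.8% of all homologs), and the chloroplast had 22 (19.8%, close to the 19.1% of all homologs). Roles described below include ribosome assembly, protein handling and RNA processing of organelles, and nucleotide and amino acid synthesis.

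All 111 homologs passed the filter on low counts, as did 8154 of the 8613, and each had counts in all 6 libraries. Total counts were between 25345718 and 33978729 per library, of which the homologs with an *Arabidopsis* match took 33.4% in aquatic replicate 1 and between 54.2% and 56.3% elsewhere. In aquatic replicate 1, 3 transcripts held 36.2% of all counts, against 0.287% to 0.987% in the other libraries. Levels are given below as CPM, counts relative to library size, scaled by the trimmed mean of M values over the homologs alone. Matches had a median identity of 66% for the 111 homologs and 60.5% for all homologs, 69 of the 111 rested on 1 transcript, and the most on 7. Homologs stand for *Arabidopsis* genes by best match only, so close gene copies may be merged or split in them.

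As a share of the counts of all homologs, the 111 took 0.677% in terrestrial replicate 1, 1.23% in terrestrial replicate 2 and 1.29% in terrestrial replicate 3. In aquatic plants the shares were 0.576%, 0.979% and 0.955% in replicates 1 to 3. Both 14-day libraries lay below the 4 libraries of 11 days, and within each harvest the aquatic libraries lay below the terrestrial ones. Between harvests the share was 1.85-fold higher at 11 days in terrestrial plants and 1.68-fold higher in aquatic plants, and between conditions it was 1.18-fold higher in terrestrial plants at 14 days and 1.30-fold higher at 11 days.

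**Figure D1:**
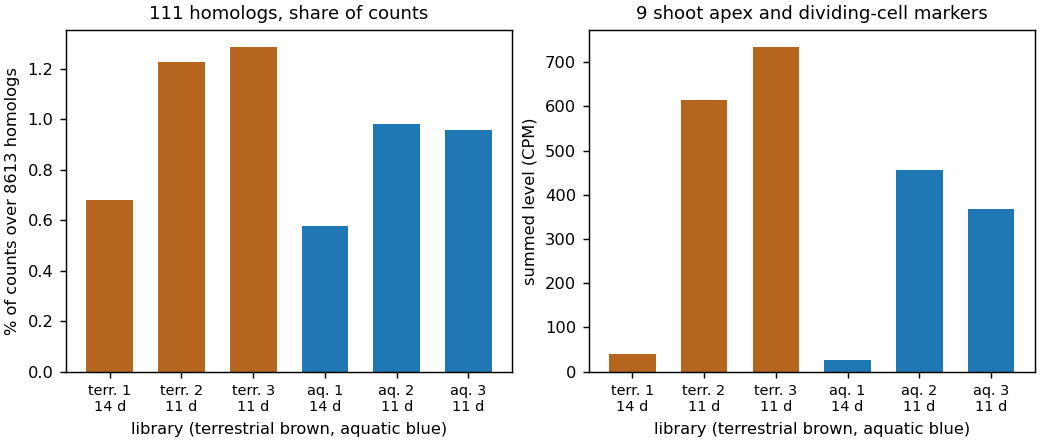
Share of the counts of all 8613 homologs taken by the 111 homologs (left, percent) and summed level of 9 marker homologs of apex and dividing cells (right, CPM), 1 bar per library, terrestrial in brown and aquatic in blue. The share ran from 0.576% to 0.677% in both 14-day libraries and from 0.955% to 1.29% at 11 days, and the markers from 27.2 to 40.8 CPM and from 369 to 736 CPM.

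Markers of meristem and dividing cells moved in the same libraries. Of 11 markers, 9 had a homolog, and their summed level was 40.8 CPM in terrestrial and 27.2 CPM in aquatic plants at 14 days, against 616 and 736 CPM in terrestrial and 457 and 369 CPM in aquatic plants at 11 days. *STM*, which maintains the meristem, was at 0 in both 14-day libraries, and *ANT*, an organ growth regulator, was at 0 in aquatic replicate 1. Among the 9, 8 fell at 14 days and 4 fell in aquatic plants by edgeR adjusted p, and none rose in either comparison. *KNOLLE*, needed for cell division, had the lowest log2 fold change of the 9 in aquatic plants. It was -1.24 ± 0.24 (edgeR adjusted p = 0.0328, 0.0841 with the replicate number as a block). The median of the 9 was -0.49, with 8 below 0 and *STM* at 0.40 ± 0.38. Leaf markers (3 of 4 with a homolog) summed to between 26970.0 and 51703 CPM in all libraries with none at 0. Of these *RBCS1A*, a Rubisco subunit, fell in aquatic plants at -1.44 ± 0.28 on the log2 scale (edgeR adjusted p = 0.0335, 0.0878 with the block), *RCA* (AT2G39730, a gene name and not the evidence code), Rubisco activase, had -0.91 ± 0.27 (edgeR adjusted p = 0.0769) and *CAB1*, a light-harvesting protein, 0.01 ± 0.26. All 3 aquatic libraries lay below the terrestrial ones for *RBCS1A* and *RCA*, and none of the 3 markers passed between harvests. Root markers (2 of 4 with a homolog) summed to between 12.4 and 42.8 CPM. Of these *SCR* fell at 14 days (log2 -1.51, edgeR adjusted p = 0.00807). *EXPA7*, between 0.206 and 2.43 CPM, had 1.57 between harvests (edgeR adjusted p = 0.13). In bulk RNA, fewer cells of a type and less RNA per cell cannot be told apart, and the part of dividing or leaf cells in the differences below was not tested.

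The terms were not picked by the harvest comparison, which uses the same 6 libraries, and 11 of the 14 homologs called lower in aquatic plants also fell at 14 days. In the 14-day libraries 67 of the 111 homologs (60.4%) fell and none rose by edgeR adjusted p, whereas 18.4% of all tested homologs fell and 15.4% rose. At an unadjusted p under 0.05, 1 homolog of the 111 was higher at 14 days, and DESeq2 called 1 higher. The median log2 fold change of 14-day over 11-day libraries was -0.62 over the 111 and -0.01 over all homologs, and 104 of the 111 were below 0, against 50.7% of all homologs. Both 14-day libraries lay below all 4 libraries of 11 days for 72 of the 111, against 24.1% of all homologs. Shares over all homologs are not given for the alternatives that follow. The number that fell was 24 without terrestrial replicate 2, 15 without terrestrial replicate 3, 35 without aquatic replicate 2 and 49 without aquatic replicate 3. It was 13 with no term for condition, and 0 without both libraries of replicate 2 or of replicate 3, when each harvest had 1 library per condition.

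**Figure D2:**
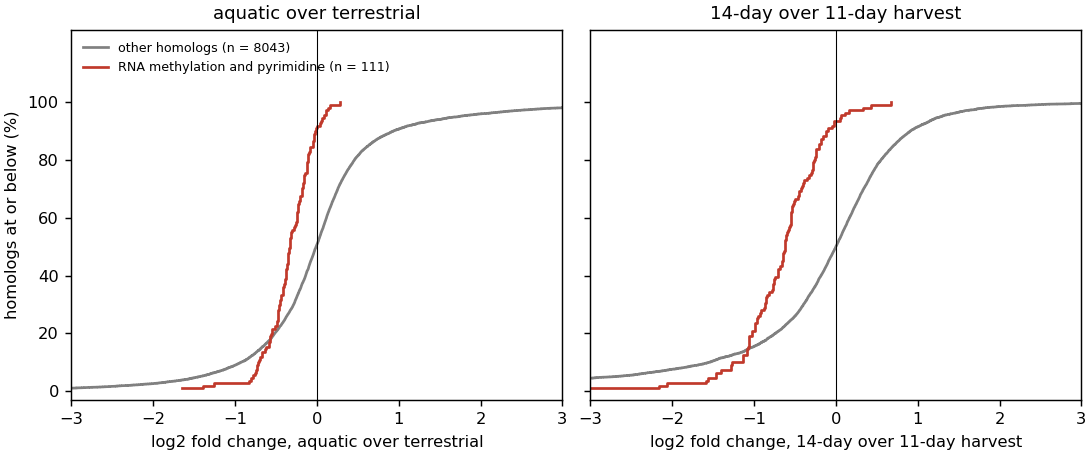
Cumulative share (percent) of homologs at or below a log2 fold change, for aquatic over terrestrial (left) and 14-day over 11-day harvest (right), with the 111 homologs in red and the 8043 other tested homologs in grey. The red curves lie mostly left of 0, with 101 and 104 of the 111 below 0 and medians of -0.33 and -0.62. Medians over all homologs are -0.02 and -0.01. The axis does not reach *GAMMA-H2AX*, at -5.94 between harvests.

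The largest harvest difference was that of *GAMMA-H2AX* (AT1G54690), a histone H2A variant of DNA repair. Its level was 4.28 CPM at 14 days and 416 and 474 CPM at 11 days on land, and 7.21 CPM at 14 days and 315 and 247 CPM at 11 days in water. Both 14-day libraries were thus far below the other 4, with a log2 fold change of -5.94 ± 0.47, edgeR adjusted p = 0.00357. In TPM, a unit that divides by transcript length, it was the highest of the 111 in terrestrial replicates 2 and 3 and aquatic replicate 2, at 514, 611 and 353 TPM, but had 5.18 and 6.99 TPM in the 14-day libraries. Without it the median harvest difference of the other homologs was -0.62.

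Among the homologs with the smallest adjusted p between harvests were proteins of mitochondria and protein folding. AT4G02930, a translation elongation factor homolog, had 86.8 CPM at 14 days and 205 and 226 CPM at 11 days on land, and 57.2 CPM at 14 days and 176 and 149 CPM at 11 days in water. Its log2 fold change between harvests was -1.41 ± 0.14, edgeR adjusted p = 0.00539. *TOM40* (AT3G20000), the channel through which proteins enter mitochondria, had 52.3 CPM at 14 days and 124 and 137 CPM at 11 days on land, and 34.3 CPM at 14 days and 115 and 94.8 CPM at 11 days in water. For *TOM40* the log2 fold change was -1.46 ± 0.15, edgeR adjusted p = 0.00555, and in both homologs the 14-day libraries of the 2 conditions lay below every 11-day library.

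*PHB4* (AT3G27280), a prohibitin of the inner mitochondrial membrane, fell at 14 days by 2.2-fold (log2 -1.14 ± 0.13, edgeR adjusted p = 0.00649). *TCP-1* (AT3G20050), a subunit of the cytosolic chaperonin that folds actin and tubulin, had a log2 fold change of -1.07 ± 0.11, edgeR adjusted p = 0.00558. AT2G28600, a helicase homolog, had one of -1.56 ± 0.17, edgeR adjusted p = 0.00632. The 5 homologs with the smallest adjusted p among those higher at 14 days did not pass: AT3G53940, a mitochondrial transporter homolog, had 0.43 (edgeR adjusted p = 0.0789), and *RNR2A* (AT3G23580), a small subunit of ribonucleotide reductase, 0.67 (edgeR adjusted p = 0.201). The other 3, AT5G13830, *AR192* (AT4G26780) and AT1G79150, had log2 fold changes of 0.33, 0.16 and 0.11 with edgeR adjusted p of 0.325, 0.546 and 0.709.

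Homologs of each compartment were among those that fell at 14 days. Of the 40 nucleolar homologs 29 fell, of the 23 mitochondrial ones 19 and of the 22 chloroplast ones 15, with median log2 fold changes of -0.62, -0.78 and -0.66. Of all homologs annotated to the same compartments 49.1%, 20.6% and 18.4% fell, so the nucleolus had a high background. Medians over all homologs of these compartments were -0.55 for the nucleolus, -0.09 for the mitochondrion and -0.01 for the chloroplast, and a homolog may be counted under several compartments. The 32 tested homologs of both terms that were left out through their ribosome annotation had a median of -1.30, and 28 of them fell.

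**Figure D3:**
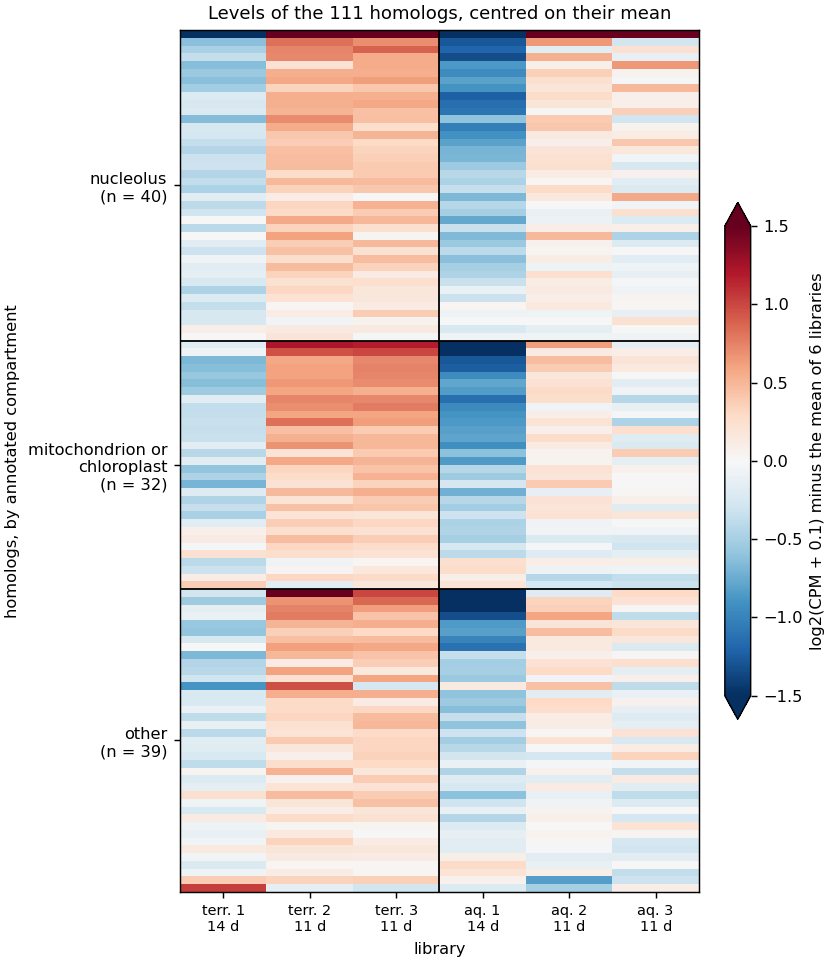
Level of each of the 111 homologs (rows) in the 6 libraries (columns) as log2(CPM + 0.1) minus its mean over the libraries, blue for lower and red for higher, sorted by harvest difference within nucleolar (40), other mitochondrial or chloroplast (32) and remaining (39) homologs. Most rows are blue in both 14-day columns and reddest in terrestrial replicates 2 and 3, and the top row is *GAMMA-H2AX*.

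In aquatic against terrestrial plants the median log2 fold change of the 111 homologs was -0.33, against -0.02 over all homologs, and the quartiles were -0.48 and -0.15. The range ran from -1.65 to 0.29, and 101 of the 111 were below 0, against 51.2% of all homologs. The low end, -1.65 ± 0.41, was a homolog that was not called. It had a mean of 0.938 TPM and 2 counts in aquatic replicate 1. By edgeR adjusted p, 14 of the 111 were lower and none higher, where 6.78% of all tested homologs were lower and 9.6% higher. At an unadjusted p under 0.05 none was higher, and DESeq2 called none higher. Since the terms were picked for this difference, these counts describe the choice. With the replicate number as a block, none of the 111 was called lower, against 1.45% of all homologs, and 44 were lower at an unadjusted p under 0.05. Shares over all homologs are not given for that unadjusted p or for the alternatives that follow. The count was also 0 without terrestrial replicate 2 or 3 or aquatic replicate 2 or 3, 8 without terrestrial replicate 1, 9 without aquatic replicate 1 and 42 with DESeq2.

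Split by harvest, the median difference had the same sign in the 14-day pair and at 11 days. As the terms were picked for this difference over the same libraries, the values below describe the choice. They are no separate support for the difference at either harvest, and by their labels the harvests also differ in tissue. Both aquatic libraries of 11 days lay below both terrestrial ones for 84 of the 111 homologs, and above them for 2, against 35.6% and 33.9% of all homologs. In the 14-day pair 86 of the 111 were lower in the aquatic library, against 49.8% of all homologs, and 82 were lower in both harvests, against 35.8%. The median log2 ratio was -0.30 in the 14-day pair and -0.34 between the means of 11 days. Across harvests the conditions overlapped for most: all 3 aquatic libraries lay below all 3 terrestrial ones for 11 of the 111, against 11.8% of all homologs.

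Pyrimidine synthesis enzymes come first in the pathway order. *CARA* (AT3G27740), the small subunit of carbamoyl phosphate synthetase, which starts the pathway, had 333 CPM at 14 days and 479.6 and 460.4 CPM at 11 days on land, and 268 CPM at 14 days and 356 and 370.2 CPM at 11 days in water. Within each harvest the aquatic libraries were the lower ones, and the log2 fold change was -0.35 ± 0.10. *PYRD*, which oxidizes dihydroorotate, had 16.4 CPM at 14 days and 21 and 22.2 CPM at 11 days on land, and 25.8 CPM at 14 days and 23.3 and 23.2 CPM at 11 days in water. It was the highest of the 111 by aquatic fold change, 0.29 ± 0.16, and its 3 aquatic libraries all lay above the 3 terrestrial ones. AT3G54470, the UMP synthase homolog, which closes the pathway to UMP, had 93.1 CPM at 14 days and 150.0 and 152 CPM at 11 days on land, and 54.9 CPM at 14 days and 122 and 123 CPM at 11 days in water, a log2 fold change of -0.45 ± 0.13. The estimates of the 3 enzymes of the pathway among the 111 lay on both sides of 0, and none of the 3 was called between conditions. For *PYRD* the log2 ratio was 0.65 in the 14-day pair and 0.11 between the means of 11 days. In the 14-day libraries *CARA* and AT3G54470 fell (log2 -0.47 ± 0.11, edgeR adjusted p = 0.0321, and log2 -0.92 ± 0.15, edgeR adjusted p = 0.0123), and *PYRD* had log2 -0.12 ± 0.17, edgeR adjusted p = 0.634.

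The other 5 homologs of pyrimidine synthesis outside the 111 included the large subunit *CARB* (AT1G29900), UMP kinase *PYR6* (AT5G26667) and CTP synthases. None of the 5 passed the test in either direction between conditions, and their median log2 fold change was 0.03. *CARB*, the partner of *CARA*, had -0.17 ± 0.13 (edgeR adjusted p = 0.382). Of 3 salvage homologs none passed, with a median of 0.12. The 5 breakdown homologs had a median of 0.73, and 1 of them rose: *PYD1* (AT3G17810), dihydropyrimidine dehydrogenase, the first enzyme of uracil degradation. *PYD1* had 54.5 CPM at 14 days and 81.1 and 82 CPM at 11 days on land, and 136 CPM at 14 days and 158 and 156 CPM at 11 days in water. Every aquatic library was above every terrestrial one, with a log2 fold change of 1.07 ± 0.12 (edgeR adjusted p = 0.0128, 0.043 with the replicate block). *PYD2* (AT5G12200) and *PYD3* (AT5G64370), the enzymes of the next steps, had 0.81 ± 0.22 and 0.46 ± 0.15, with edgeR adjusted p of 0.0644 and 0.0901.

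Purine synthesis homologs were also annotated under the pyrimidine term. AT1G63660, GMP synthase, had 52.7 CPM at 14 days and 97.8 and 90.4 CPM at 11 days on land, and 19.2 CPM at 14 days and 75.1 and 59.3 CPM at 11 days in water. Its log2 fold change was -0.80 ± 0.24, and aquatic replicate 1 was the lowest library. *PUR5* (AT3G55010), which forms the imidazole ring of purines, had -0.46 ± 0.15, AT2G35040, the bifunctional enzyme of the last steps to IMP, -0.37 ± 0.10, and *ADSS* (AT3G57610), adenylosuccinate synthase, 0.06 ± 0.10. At 14 days AT1G63660, *PUR5* and *ADSS* fell (log2 -1.29, -0.86 and -0.60, edgeR adjusted p = 0.0226, 0.0177 and 0.0173), and AT2G35040 had -0.28 (edgeR adjusted p = 0.111). Among 7 purine synthesis homologs outside the 111, 1 fell in aquatic plants, *AIRC* (AT2G37690), phosphoribosylaminoimidazole carboxylase, at -0.77 ± 0.15 (edgeR adjusted p = 0.0308, 0.0659 with the replicate block), none rose, and the median was -0.24.

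Enzymes of amino acid and sugar phosphate metabolism were also under the pyrimidine term, with values on both sides of 0. *AT-HF* (AT4G26900), imidazole glycerol phosphate synthase of histidine synthesis, had 46.1 CPM at 14 days and 92.7 and 96.1 CPM at 11 days on land, and 10.8 CPM at 14 days and 52.2 and 51.4 CPM at 11 days in water. Aquatic replicate 1 was the lowest by far, and the log2 fold change was -1.25 ± 0.27. *DHAD* (AT3G23940), dihydroxyacid dehydratase of branched-chain amino acid synthesis, had 113 CPM at 14 days and 235 and 249.8 CPM at 11 days on land, and 75.2 CPM at 14 days and 141 and 135 CPM at 11 days in water, with the aquatic libraries lower in each harvest (log2 -0.74 ± 0.11). AT2G42910, a ribose phosphate diphosphokinase homolog, which makes the sugar phosphate used by purine, pyrimidine and histidine synthesis, had a log2 fold change of -0.58 ± 0.11. *ASP1* (AT2G30970), a mitochondrial aspartate aminotransferase, was on the other side, at 0.11 ± 0.18.

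**Figure D4:**
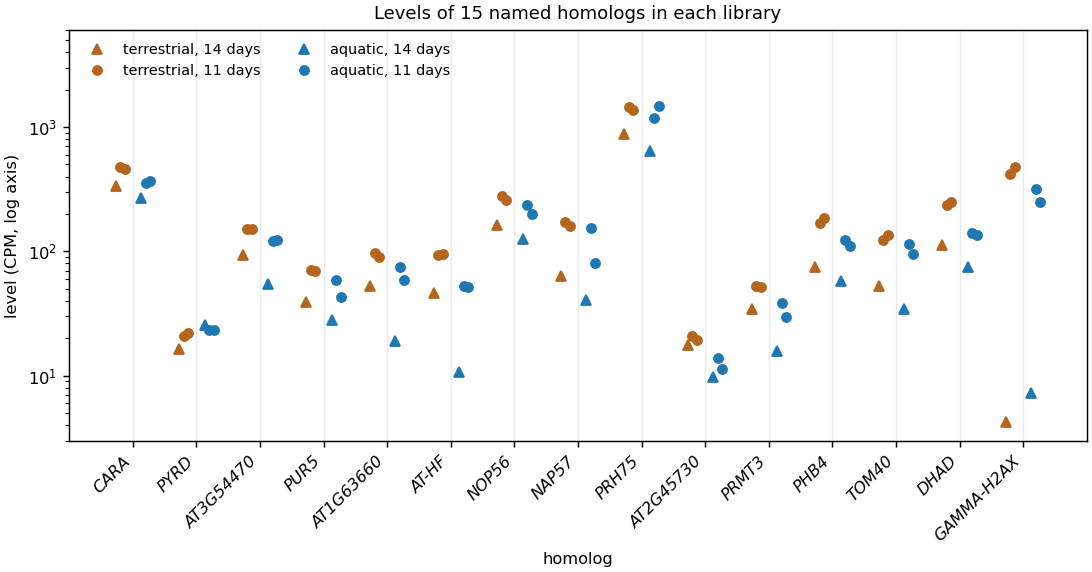
Level (CPM, log axis) of 15 of the 111 homologs in each library, with terrestrial in brown and aquatic in blue, triangles for 14 days and circles for 11 days. In all but *PYRD*, AT2G45730 and *PRMT3* both triangles lie below all 4 circles, and *GAMMA-H2AX* has the widest gap, from 4.28 and 7.21 CPM to between 247 and 474 CPM.

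Core proteins of the snoRNPs were represented by 4 homologs. *NOP56* (AT1G56110), a core protein of the complexes that methylate the ribose of ribosomal RNA, had 162 CPM at 14 days and 279 and 261 CPM at 11 days on land, and 127 CPM at 14 days and 238 and 198 CPM at 11 days in water. AT3G05060, its partner of the NOP58 type, had 124 CPM at 14 days and 265 and 264 CPM at 11 days on land, and 93.9 CPM at 14 days and 232 and 189 CPM at 11 days in water. Their log2 fold changes in aquatic plants were -0.33 ± 0.12 and -0.35 ± 0.12, and both fell at 14 days (log2 -0.76 ± 0.13, edgeR adjusted p = 0.0154, and log2 -1.13 ± 0.14, edgeR adjusted p = 0.0071). *NAP57* (AT3G57150), the pseudouridine synthase of the other snoRNP class, had 63.3 CPM at 14 days and 173 and 159 CPM at 11 days on land, and 40.5 CPM at 14 days and 154 and 81.2 CPM at 11 days in water. It fell at 14 days (log2 -1.46 ± 0.29, edgeR adjusted p = 0.02), and its log2 fold change in aquatic plants was -0.55 ± 0.25, with its 11-day aquatic libraries further apart than its terrestrial ones. AT5G08180, the NHP2-type partner of *NAP57*, had log2 -0.01 ± 0.16 between conditions and -0.42 ± 0.17, edgeR adjusted p = 0.121 between harvests. No snoRNP homolog outside the 111 was tested.

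The methyltransferase homologs AT5G13830 and AT5G01230 were under RNA methylation by electronic annotation. AT5G13830 had 13.9 CPM at 14 days and 13.5 and 13.7 CPM at 11 days on land, and 11.2 CPM at 14 days and 5.98 and 8.63 CPM at 11 days in water. Its 3 aquatic libraries lay below the 3 terrestrial ones, with a log2 fold change of -0.70 ± 0.22, whereas AT5G01230 had -0.04 ± 0.12 and its conditions overlapped. Between harvests they had log2 0.33 ± 0.23, edgeR adjusted p = 0.325, and log2 -0.26 ± 0.13, edgeR adjusted p = 0.18. Subunits of transfer RNA methyltransferases were also present. AT2G45730, placed under the pyrimidine term only, is a homolog of the subunit TRM6 of the methyltransferase that acts on adenosine in transfer RNA. It had 17.7 CPM at 14 days and 20.8 and 19.5 CPM at 11 days on land, and 9.73 CPM at 14 days and 13.8 and 11.4 CPM at 11 days in water. All 3 aquatic libraries lay below all 3 terrestrial ones, and the log2 fold change was -0.74 ± 0.15. It had -0.28 ± 0.16, edgeR adjusted p = 0.227 between harvests. *TRM82* (AT1G03110), a subunit of the enzyme that methylates guanosine in transfer RNA, had 34.5 CPM at 14 days and 35.3 and 35 CPM at 11 days on land, and 27.7 CPM at 14 days and 30.5 and 25.5 CPM at 11 days in water, or log2 -0.32 ± 0.12, and -0.02 ± 0.13, edgeR adjusted p = 0.9 between harvests. *PRMT3* (AT3G12270), which methylates protein and not RNA, had 34.1 CPM at 14 days and 52.7 and 51.6 CPM at 11 days on land, and 15.8 CPM at 14 days and 38.2 and 29.6 CPM at 11 days in water, a log2 fold change of -0.78 ± 0.17.

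Of 11 RNA methyltransferase homologs outside the 111, 1 fell in aquatic plants and none rose, with a median of -0.23. It was *PFC1* (AT1G01860), an enzyme of the chloroplast that dimethylates adenosines of ribosomal RNA, which had 64.8 CPM at 14 days and 87.8 and 95.9 CPM at 11 days on land, and 31.3 CPM at 14 days and 42.9 and 48.7 CPM at 11 days in water. The groups did not overlap (log2 -1.02 ± 0.10, edgeR adjusted p = 0.0115, 0.0338 with the replicate block). *TRM61* (AT5G14600), the catalytic partner of TRM6, had -0.61 ± 0.19 (edgeR adjusted p = 0.0833). Among 6 homologs of N6-methyladenosine, the internal methylation of messenger RNA, 1 rose, the demethylase *ALKBH9B* (AT2G17970), at 0.54 ± 0.10 (edgeR adjusted p = 0.0303, 0.0795 with the replicate block), while *MTA* (AT4G10760), the methyltransferase, had -0.45 ± 0.12 (edgeR adjusted p = 0.0593). The median of the 6 was -0.03.

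For the methyl donor, 7 homologs of S-adenosylmethionine metabolism had a median of 0.44 in aquatic plants, with 1 higher and none lower. *MTHFR2* (AT2G44160), methylenetetrahydrofolate reductase, rose (log2 1.22 ± 0.22, edgeR adjusted p = 0.0271, 0.0707 with the replicate block). *SAHH1* (AT4G13940), which removes the product S-adenosylhomocysteine, had 339 CPM at 14 days and 1256 and 1196 CPM at 11 days on land, and 187 CPM at 14 days and 924 and 923 CPM at 11 days in water. It fell at 14 days (log2 -2.07, edgeR adjusted p = 0.00372) and had -0.56 ± 0.15 between conditions (edgeR adjusted p = 0.0591). *SAHH2* (AT3G23810), another homolog of the same enzyme, had the opposite sign between conditions, at 0.91 ± 0.52 (edgeR adjusted p = 0.257).

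**Figure D5:**
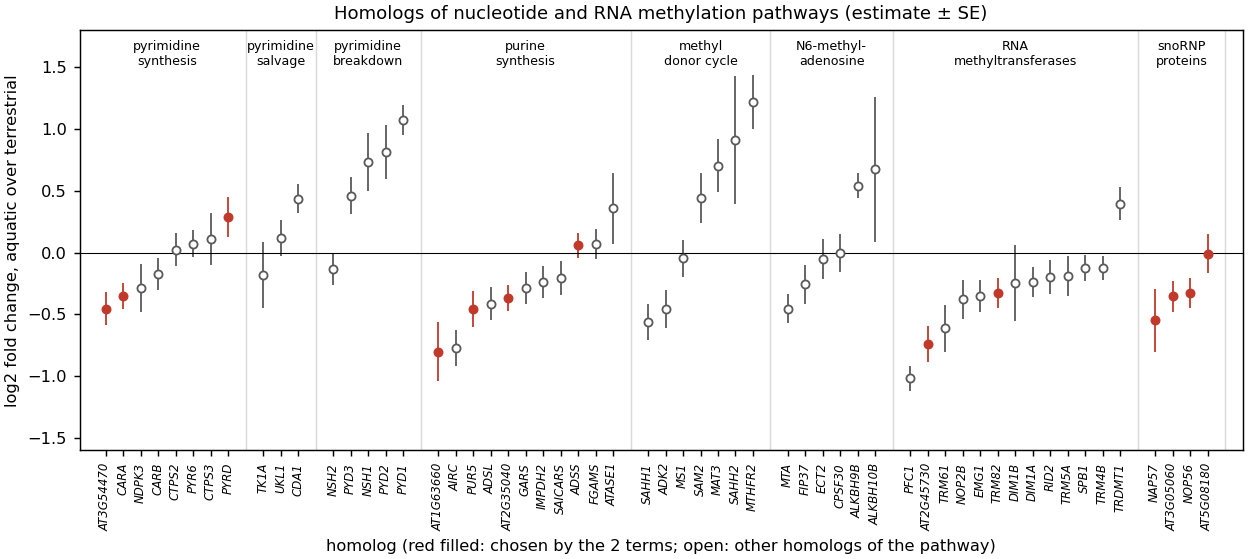
Log2 fold change of aquatic over terrestrial plants (points, with bars of 1 SE) for homologs of nucleotide synthesis and breakdown, of the methyl donor cycle and of RNA methylation, red where the homolog is among the 111 and open where it is not. Pyrimidine breakdown homologs lie mostly above 0, up to 1.07 for *PYD1*, and RNA methyltransferases mostly below, down to -1.02 for *PFC1*.

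*PRH75* (AT5G62190), a nucleolar RNA helicase, and *Nog1-1* (AT1G50920), a GTPase of large-subunit assembly, had mean levels per length of 284 and 136 TPM, against 128 for *CARA* and 115 TPM for *ATG2* (AT3G51800). In both 14-day libraries and in aquatic replicate 3 *PRH75* was the highest of the 111 in TPM. *PRH75* had 874 CPM at 14 days and 1444 and 1379 CPM at 11 days on land, and 642 CPM at 14 days and 1176 and 1479.6 CPM at 11 days in water, so the 11-day libraries of the conditions overlapped (log2 -0.21 ± 0.16). *Nog1-1* had log2 -0.14 ± 0.15 between conditions, and both fell at 14 days (log2 -0.87 ± 0.18, edgeR adjusted p = 0.0213, and log2 -1.06 ± 0.17, edgeR adjusted p = 0.0122). The median level of the 111 was 19.0 TPM, 6 were above 100 TPM and 33 under 10 TPM.

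Values of other assembly factors between conditions ran from -0.58 to 0.05. For the large subunit, *AtPEP2* (AT5G15550, WDR12 type) had -0.48 ± 0.19, AT3G22660 (EBP2 type) -0.58 ± 0.18, AT1G52930 (BRX1 type) -0.44 ± 0.11, *PUM24* (AT3G16810) -0.36 ± 0.16 and *NSN1* (AT3G07050), a nucleostemin-like GTPase, 0.05 ± 0.23 on the log2 scale between conditions. For ribosomal RNA processing, *RRP5* (AT3G11964) had -0.39 ± 0.30, *RBL* (AT3G55510) -0.34 ± 0.15 and *TOZ* (AT5G16750) -0.38 ± 0.20. Between harvests *AtPEP2*, AT3G22660, AT1G52930, *PUM24* and *TOZ* fell, by log2 -0.98, -1.06, -0.87, -0.65 and -0.96 (edgeR adjusted p = 0.0248, 0.017, 0.00957, 0.0412 and 0.0289). *NSN1*, *RRP5* and *RBL* did not pass, at -0.62, -0.55 and -0.53 (edgeR adjusted p = 0.114, 0.245 and 0.0563). Of 10 assembly factors outside the 111, 1 fell in aquatic plants, *NOF1* (AT1G17690), at -0.51 ± 0.12 (edgeR adjusted p = 0.0468, 0.103 with the replicate block), none rose, and the median was -0.24. The RNA polymerase I subunits *NRPA1* (AT3G57660) and *NRPA2* (AT1G29940), which transcribe ribosomal RNA, had -0.41 ± 0.13 and -0.21 ± 0.19, and neither passed (edgeR adjusted p = 0.096 and 0.461). Of 4 homologs of the TOR kinase pathway, a regulator of growth, none passed, with a median of -0.02.

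Of the 40 nucleolar homologs 2 were among the 14 called lower in aquatic plants, *PHB3* and AT3G15140, beside 7 of 22 chloroplast and 5 of 23 mitochondrial ones, and the medians of the 3 compartments were -0.28, -0.47 and -0.46. Of all homologs of the nucleolus, chloroplast and mitochondrion 7.43%, 10.6% and 7.87% were called lower, with medians of -0.24, -0.11 and -0.13. *PHB3* (AT5G40770), a prohibitin, had 11.2 CPM at 14 days and 26.3 and 29.3 CPM at 11 days on land, and 6.85 CPM at 14 days and 14 and 18.5 CPM at 11 days in water, a log2 fold change of -0.75 ± 0.16, and *PHB4* had -0.51 ± 0.12. AT3G15140, an exoribonuclease homolog, had -0.72 ± 0.13, and *EMB3108* (AT1G59990), AT5G39840 and AT2G28600, all helicase homologs, had -0.64 ± 0.09, -0.62 ± 0.14 and -0.67 ± 0.15. The rest, beside *AT-HF*, *PRMT3*, AT2G45730, *DHAD* and AT2G42910 above, were *emb1796* (AT3G49240) at -0.67 ± 0.13, *FTSZ1-1* (AT5G55280), a tubulin-like protein of chloroplast division, at -0.55 ± 0.10, and AT1G48570 at -0.48 ± 0.10.

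Large values did not always mean a call. *ROC2* (AT3G56070), a cyclophilin, had 29 CPM at 14 days and 76.4 and 74.6 CPM at 11 days on land, and 5.04 CPM at 14 days and 50.7 and 29.7 CPM at 11 days in water. Its log2 fold change was -1.40 ± 0.41, with an SE larger than that of any of the 14 called homologs. AT5G02050, a mitochondrial matrix protein, and *GYRA* (AT3G10690), a DNA gyrase subunit, had -0.83 ± 0.20 and -0.73 ± 0.21. At the upper end, next to *PYRD*, were AT5G64680 at 0.16 ± 0.14, *DGL1* (AT5G66680), a subunit of the enzyme that transfers glycans to proteins, at 0.13 ± 0.13, and *GTS1* (AT2G47790) at 0.12 ± 0.17.

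Over these pathway lists together, 60 homologs outside the 111 were tested. By edgeR adjusted p 3 fell and 3 rose, where 6.78% of all tested homologs fell and 9.6% rose. At an unadjusted p under 0.05, 14 fell and 9 rose, and with DESeq2 12 fell and 7 rose. Shares over all homologs are not given for these settings. With the replicate number as a block, 1 fell and 1 rose, *PFC1* and *PYD1*.

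Wider GO terms held 374 further homologs outside the 111, of which 39 fell and 5 rose in aquatic plants (6 and 1 with the replicate block). Of all tested homologs 6.78% fell and 9.6% rose, and 1.45% fell with the block. Under ribosomal RNA processing 18 of 129 fell and none rose, with a median log2 fold change of -0.19, among them *CPZ* (AT2G04530), a transfer RNA 3' processing enzyme, at -0.83 ± 0.11 (edgeR adjusted p = 0.0155, 0.0446 with the block). Under nucleolus 11 of 135 fell and 4 rose (median -0.24), under ribosome biogenesis 3 of 32 fell (-0.37) and under purine biosynthesis 4 of 14 (-0.25). Of the RNA methylation terms, ribosomal RNA methylation had 2 homologs, of which AT3G28460 fell, at -0.73 ± 0.12 (edgeR adjusted p = 0.0232, 0.0493 with the block), and transfer RNA methylation 7, of which 1 fell (median -0.10). Under transfer RNA processing 1 of 21 fell (median -0.21). Neither of the 2 homologs of S-adenosylmethionine synthesis passed. Of 2 annotated under pyrimidine synthesis from precursors 1 rose, *PYD1*, which is the breakdown enzyme described above. Under DNA replication 6 of 61 fell in aquatic plants (median -0.43). At 14 days 47 of the 61 fell (median -2.89), against 18.4% of all homologs.

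The aquatic difference was also compared between harvests, by an interaction term, with 1 library per condition at 14 days and the spread taken from the 4 libraries of 11 days. *AT-HF* was the 1 homolog of the 111 that passed, against 3.95% of all homologs with a lower and 0.662% with a higher aquatic value at 14 days, and at an unadjusted p under 0.05 there were 11, of which 6 had the lower aquatic value at 14 days, against 1616 of all 8154 homologs. Its aquatic level was lower at 14 days than the 11-day difference gives by -1.23 ± 0.19 on the log2 scale (edgeR adjusted p = 0.0417). None of the 111 passed without terrestrial replicate 2 or 3, with the largest transcript alone or with limma on FPKM, and 2 were lower without aquatic replicate 2 or 3.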

How the data were processed

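RNA from 3 terrestrial and 3 aquatic libraries was sequenced, assembled de novo by the authors with Trinity and quantified per transcript. TopHat and Cufflinks are named for it, with no versions, while the deposited files look like RSEM output, a tool that no source used here names. The expected counts deposited by the authors are estimated fragments per transcript, and all were whole numbers. The TPM values deposited by the authors were scaled over all assembled transcripts, so they are lowered in aquatic replicate 1 by its 3 abundant transcripts. The FPKM values deposited by the authors are per length and per depth, before their quantile normalization. The annotation table deposited by the authors gives the best protein match, its percent of identical residues and GO terms. In that table, 6 columns of values per library were not used. The authors' leaf GO tables, with summed FPKM and log2 ratios of the conditions, were not used. No build was involved, so no coordinates or sequences are given.

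Counts were summed per *Arabidopsis* match and tested across all homologs with edgeR 4.0.16 (quasi-likelihood, TMM scaling, filterByExpr with a minimum count of 10) in R 4.3.3, with terms for harvest and condition or their interaction. P-values are two-sided and adjusted over all 8154 tested homologs by Benjamini-Hochberg, with 0.05 as the threshold. They measure the spread between these libraries, which the study calls independent experiments and whose source the labels do not give. Errors of fold changes (SE) are approximate standard errors (3 libraries per condition, 2 and 4 per harvest). Each is the absolute log2 fold change divided by the square root of the quasi-likelihood F statistic. Alternatives were DESeq2 1.42.0, its size factors, other count filters, limma 3.58.1 on log2 FPKM after quantile normalization (pseudocount 1 or 0.1, minimum mean 1 or none), whose fold changes understate those of low genes, leaving out libraries, and other choices of evidence, identity or terms. The fit was run on simulated counts with known changes in either condition or harvest, never both. It thus does not show how the fit performs where both effects are present. Python 3.11.15 with pandas 2.3.3, numpy 2.4.6 and, for plots, matplotlib 3.10.9 did the rest. Ratios within a harvest used CPM with 0.1 added.

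Replicate numbers were checked for pairing by the correlation, over homologs, of deviations from the mean of the condition. It was 0.662, 0.543 and 0.465 for replicates 1, 2 and 3 of the same number, and 0.477 and 0.593 for the crossed pairs of 11 days. Within the 11-day harvest it was -0.0784, so the pairing follows the harvest. The labels give the number only.

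The terms, the lists (nucleotide synthesis, salvage and breakdown, S-adenosylmethionine, N6-methyladenosine, RNA methyltransferases, snoRNPs, ribosome assembly, RNA polymerase I, TOR, markers and GO terms) and the tests were chosen with earlier results of these data known. Named genes are the homologs in those lists, the 10 lowest and 5 highest aquatic fold changes where every library of the higher condition held 50 counts or more, the 5 highest in mean TPM, the 5 smallest adjusted p per direction between harvests, any that passed the interaction, those with experimental evidence, and per list up to 3 others with the smallest adjusted p. The other homologs among the 14 called lower, *PYD3*, *SAHH2* and AT5G01230 were named after their values were seen.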

Additional observations from a re-analysis of the deposited data

Results flagged for a closer look

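*AT-HF* was looked at again because its difference between conditions differed between harvests by the interaction test: the 14-day log2 difference minus the 11-day one was -1.23 (edgeR adjusted p = 0.0417). The aquatic library was lower in both harvests, with log2 ratios of -2.08 in the 14-day pair and -0.86 between the means of 11 days. The 14-day harvest has 1 library per condition.

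Transcripts with a fungal best match, which no comparison here uses, were counted because 1635 of them had a count in aquatic replicate 2, against 54 to 161 in the other libraries.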

How the results depend on the processing

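The median aquatic log2 fold change of the 111 homologs stayed between -0.39 and -0.28 when libraries were left out, and the harvest median between -0.66 and -0.57. Of the settings below, shares over all homologs are given only for the main fit and the replicate block. The count called lower in aquatic plants was 14, against 6.78% of all tested homologs. It was 42 with DESeq2, 28 with limma on FPKM (28 without a filter, 24 with a pseudocount of 0.1), 0 with no harvest term and 0 to 9 when libraries were left out. By choice of homologs it was 4 of the 53 under RNA methylation (7.55%) and 11 of the 73 under pyrimidine synthesis (15.1%), where 15 homologs count under both. It was 0 for the 2 homologs with evidence other than RCA and IEA, whose median was -0.084.

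With the replicate number as a block the count was 0. In the same fit the pathway lists had 1 lower and 1 higher and the GO lists 6 lower and 1 higher.

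With DESeq2 the pathway lists had 12 lower and 7 higher and the GO lists 106 lower and 17 higher. Leaving out replicate 1, the pathway lists had 4 lower and 5 higher and the GO lists 48 lower and 6 higher.

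Between harvests the count lower at 14 days was 67. It was 13 with no condition term and 0 to 49 when libraries were left out, with 1 higher by DESeq2. For the interaction, 1 homolog was lower. The count was 0 with the largest transcript only and with limma on FPKM in all its settings, whose medians were 0.20, 0.21 and 0.20 for a pseudocount of 1, of 0.1 and no filter. It was 0 to 2 lower and 0 to 1 higher when libraries were left out, with medians from -0.01 to 0.09, and 1 higher by DESeq2. The cause of these shifts was not tested. No named homolog that had been called reversed its direction under these alternatives. With 1 library per condition at 14 days, single-homolog differences below the spread between replicates cannot be resolved.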
